A study of Mus musculus with 20 samples.

Results

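Polycomb repressive complex 1 was examined through 9 of its genes: the chromobox genes Cbx7, Cbx2, Cbx6 and Cbx8, the ring finger genes Bmi1, Ring1 and Rnf2, and the polyhomeotic genes Phc1 and Phc2. Members were found by matching the RefSeq identifier that names each array probe to these symbols, which gave 12 probes of the 55681 on the array, and 9 of its 20972 named genes. Cbx6 had 3 probes, Bmi1 had 2 and every other gene had 1. Cbx7 was chosen by its difference between Tat+/Sal and Tat-/Sal in these same arrays, so that difference is described here and not tested. The other genes were chosen for their place in the complex, with earlier results of these data known.

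The samples are brains of male C57BL/6J mice in 4 groups of 5, measured on 20 single-colour arrays, 1 per sample. All mice carry a doxycycline-responsive transcription factor under the promoter of Gfap, an astrocyte gene, and all received doxycycline at 100 mg/kg. The Tat+ mice also carry the HIV-1 Tat gene under the promoter that this factor switches on, so Tat is made in astrocytes, while Tat- mice lack it. Tat-/Meth and Tat+/Meth mice were injected with 2 mg/kg methamphetamine (Meth), and Tat-/Sal and Tat+/Sal mice with saline, for 7 days. The labels give the left hemisphere, an age of 6 to 7 weeks and 24 h after the last injection, whereas the methods give the caudate putamen, older mice and a Meth challenge after abstinence. In these arrays 10 of 10 markers of striatal projection neurons were well above background on every array. Of 4 cerebellum markers, Gabra6 did not rise well above background on any array, while the other 3 did on every array. Of 6 markers of cortex excitatory neurons, 3 or 4 were well above background on all arrays of each group. The region taken was not tested. In whole tissue, fewer cells of a type and less RNA per cell cannot be told apart.

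Values are log2 signals after scaling each array to its 75th percentile. The arrays lie on 3 slides. Slide 1 holds the 5 Tat-/Meth arrays alone, slide 2 the 5 Tat-/Sal and 3 Tat+/Meth arrays, and slide 3 the 5 Tat+/Sal arrays together with the remaining 2 of Tat+/Meth. Bright corner control spots read 14.67 to 15.06 log2 units on slide 1 against 16.79 to 17.44 on the other slides. For every comparison with Tat-/Meth, slide and group cannot be told apart. Tat-/Meth replicate 5 stood apart at dim probes: 3910 of its 55681 probes were over 2 log2 units above all other arrays, against 19 to 151 on each other array. All 12 member probes were well above background on all 20 arrays and passed the signal filter.

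Polycomb complexes keep developmental genes silent. Polycomb repressive complex 2 (PRC2) methylates histone H3, the chromodomain of a chromobox (Cbx) protein in the canonical form of PRC1 binds that mark, and Ring1 or Rnf2 attaches ubiquitin to histone H2A. Only 1 Cbx protein sits in a canonical complex at a time, so its composition can change with the Cbx gene in use. Cbx7 is best known from embryonic stem cells and as a repressor of the Cdkn2a locus, and Bmi1 from the self-renewal of neural stem cells, where it represses the same locus.

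Promoters of the 3 genes whose values the results turn on most, Cbx7, Bmi1 and Rnf2, are shown first. Each runs from 250 bases before to 50 bases after the annotated start, 5′ to 3′ in the direction of the gene, from RefSeq on build GRCm38.p6. They are chr15:79932597-79932896 (minus strand) for Cbx7, chr2:18676768-18677067 (plus strand) for Bmi1 and chr1:151500942-151501241 (minus strand) for Rnf2. Capitals mark the motifs searched on both strands: TATAAA (the TATA box), GGGCGG (the GC box of Sp1), TGACGTCA (the cyclic AMP response element), CACGTG (an E box), TGANTCA (AP-1) and the palindromic motif of NRF1. Neighbouring or overlapping matches merge into 1 run of capitals.
Cbx7: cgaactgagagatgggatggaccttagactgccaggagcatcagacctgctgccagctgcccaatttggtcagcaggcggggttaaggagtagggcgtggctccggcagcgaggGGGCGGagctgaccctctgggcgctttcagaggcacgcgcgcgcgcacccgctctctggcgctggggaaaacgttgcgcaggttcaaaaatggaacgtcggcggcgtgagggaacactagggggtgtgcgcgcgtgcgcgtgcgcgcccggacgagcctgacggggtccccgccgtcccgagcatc
Bmi1: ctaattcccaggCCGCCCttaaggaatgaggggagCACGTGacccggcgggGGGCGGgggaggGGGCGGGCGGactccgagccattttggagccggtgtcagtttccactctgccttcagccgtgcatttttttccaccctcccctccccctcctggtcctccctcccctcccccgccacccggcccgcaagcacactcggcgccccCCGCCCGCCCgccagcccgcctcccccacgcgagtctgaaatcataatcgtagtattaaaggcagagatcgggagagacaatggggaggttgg
Rnf2: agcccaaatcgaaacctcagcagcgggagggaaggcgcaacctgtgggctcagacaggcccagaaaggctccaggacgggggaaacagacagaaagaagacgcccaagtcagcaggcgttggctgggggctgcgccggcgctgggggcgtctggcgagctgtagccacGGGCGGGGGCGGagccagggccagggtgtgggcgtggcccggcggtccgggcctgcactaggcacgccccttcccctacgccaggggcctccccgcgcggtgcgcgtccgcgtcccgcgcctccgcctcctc

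The Cbx7 window held 1 GC box, 136 bases before the start, and 33 CpG dinucleotides, against a median of 7 over 32851 promoters of the same length. Bmi1 held 6 GC boxes, of which 2 pairs overlap, and 1 E box. Rnf2 held 2 GC boxes that abut. A GC box lies in 35.7% of all these promoters and an E box in 7.15%. Of the 8 members with an entry, 7 held a GC box in at least 1 promoter, Phc1 held none of the motifs, and Cbx8 alone held the cyclic AMP response element, which 1.79% of all promoters hold. TATAAA, found in 13.6% of all promoters, TGANTCA, in 7.81%, and the NRF1 motif, in 0.971%, were not among the letters of any member window. These matches describe the letters only.

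Cbx7 had the widest range of group means among the 12 probes. Its log2 signal was 9.56, 9.56, 9.31, 9.34 and 9.52 in Tat-/Sal and 7.14, 7.56, 6.99, 7.36 and 7.61 in Tat-/Meth. It was 8.55, 8.45, 8.53, 8.55 and 8.31 in Tat+/Sal. In Tat+/Meth it was 9.46, 9.59 and 9.58 on slide 2 and 8.65 and 8.70 on slide 3. Tat-/Meth was thus lowest with no overlap with any other group, while the Tat+/Meth arrays divided between values like those of Tat-/Sal on slide 2 and values just above those of Tat+/Sal on slide 3.

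**Figure D1:**
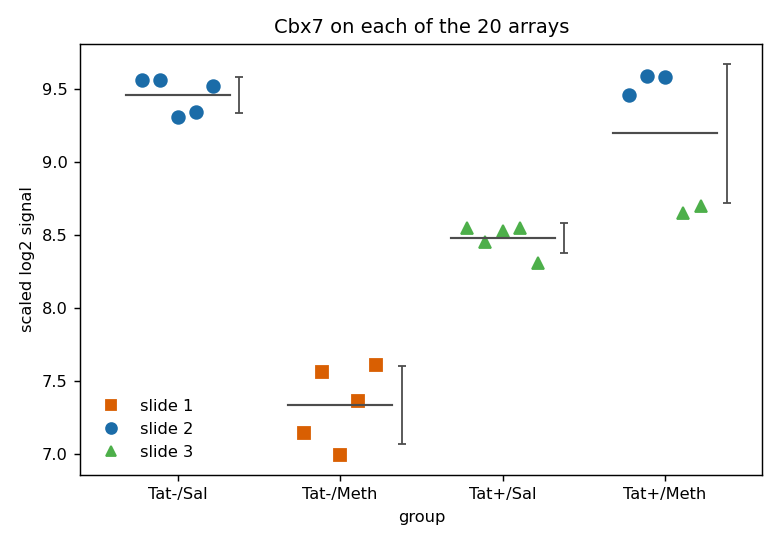
Scaled log2 signal of the Cbx7 probe on each of the 20 arrays, by group on the x axis, with the slide shown by shape and colour; lines are group means and bars 1 SD (n = 5). Slide 2 lies at 9.31 to 9.59, slide 3 at 8.31 to 8.70 and slide 1 at 6.99 to 7.61, and the 5 Tat+/Meth arrays are divided between slides 2 and 3.

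Ordered by slide, the Cbx7 values fell into 3 bands that did not overlap. The mean was 9.49 ± 0.11 on slide 2 (SD, n = 8), 8.53 ± 0.13 on slide 3 (n = 7) and 7.33 ± 0.27 on slide 1 (n = 5). Slide 2 holds every Tat-/Sal array and slide 3 every Tat+/Sal array, so the step between these slides largely repeats the contrast that chose Cbx7, and the bands are a description from which nothing is drawn. Over all 31516 tested probes, 0.349% had 3 slides without overlap. Within Tat+/Meth the Cbx7 difference, slide 3 less slide 2, was -0.87 log2 units.

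In Tat+/Sal vs. Tat-/Sal, the contrast on which Cbx7 was selected, its mean was 8.48 against 9.46, a difference of -0.98 log2 units or 1.97-fold (SE 0.17). All Tat+/Sal arrays lie on slide 3 and all Tat-/Sal arrays on slide 2. With slide as a fixed term in the fit, carried by the Tat+/Meth arrays that lie on both, the difference was -0.11 log2 units. Within slide 2, Tat+/Meth was 0.08 log2 units above Tat-/Sal (SE 0.09). Within slide 3, Tat+/Meth was 0.20 above Tat+/Sal (SE 0.10), with no overlap of the arrays. Of all tested probes, 0 passed limma's adjusted threshold within either slide. The Tat-/Sal and Tat+/Sal arrays are those of the contrast that chose Cbx7, so both values are descriptions. Of the 31516 probes, 69 differed between the saline groups at least as far downwards as Cbx7, and 25 of these 69 were also lower on slide 3 within Tat+/Meth without overlap, as were 12% of all tested probes.

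The other members separated less by slide. Within Tat+/Meth, 5 of the 12 member probes, Cbx7 included, did not overlap between slides 2 and 3, where 21.8% of all tested probes did not. Besides Cbx7, Cbx6 probe A_51_P391764 (-0.25) and Cbx8 (-0.30) were lower on slide 3. Rnf2 (0.12) and Phc1 (0.23) were higher on slide 3. With 3 arrays against 2 these are descriptions without a test.

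Meth without Tat is addressed by Tat-/Meth vs. Tat-/Sal. Cbx7 and Ring1 fell, Cbx2, Rnf2 and 1 of 2 Bmi1 probes rose, the 3 Cbx6 probes disagreed, and Cbx8, Phc1 and Phc2 did not pass. In all, 7 of 12 member probes, from 6 genes, passed a limma adjusted p of 0.05, against 50.3% of all tested probes. Of these, 4 were higher (28.1% of all probes were) and 3 lower (22.2%). The median difference was -0.04 log2 units for the members and 0.10 for all probes. Cbx7 was the only member that passed and changed over 2-fold, where 11.6% of all probes did.

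Cbx7 itself fell 4.36-fold in Tat-/Meth vs. Tat-/Sal, a log2 difference of -2.12 (SE 0.17, limma adjusted p = 1.26e-08, lower in 5 of 5 arrays). Over the alternative settings the difference ranged from -2.55 to -1.66 and the adjusted p from 6.23e-10 to 9.66e-06. Its Tat-/Sal arrays are those of the contrast that chose it.

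Among the other chromobox genes, Cbx2, whose protein can compact chromatin, read 7.77, 8.04, 7.78, 8.15 and 8.01 in Tat-/Sal. In Tat-/Meth it read 8.32, 8.58, 8.55, 9.83 and 8.64. All Tat-/Meth arrays were above all Tat-/Sal arrays, and replicate 4 was far above the rest. The difference was 0.83 log2 units (SE 0.20, limma adjusted p = 0.00219). Without Tat-/Meth replicate 4 it was 0.57 (limma adjusted p = 0.000522). With no scaling of the arrays it was 0.41 and did not pass (limma adjusted p = 0.128).

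Cbx6 is the one member whose probes moved in opposite directions. Probe A_51_P221428 read 14.57, 14.67, 14.74, 14.81 and 14.57 in Tat-/Meth, all above its Tat-/Sal values of 14.11, 14.28, 14.32, 14.17 and 13.62, a rise of 0.57 (SE 0.13, limma adjusted p = 0.00123). Probe A_51_P391764 read 15.26 to 15.58 in Tat-/Meth against 15.54 to 15.90 in Tat-/Sal and was lower (difference -0.28, SE 0.09, limma adjusted p = 0.0112), with 1 array overlapping. Probe A_55_P2111741 overlapped between the groups and differed by -0.08 (limma adjusted p = 0.589). No single direction can be given for Cbx6. Quantile normalization and median scaling took the call from A_51_P391764 (adjusted p of 0.0639 and 0.405) and no scaling took it from A_51_P221428 (adjusted p = 0.503). Cbx8, which can recruit transcription factors to the complex, differed by -0.12 (SE 0.09, limma adjusted p = 0.26) and passed, lower, only with no scaling (-0.54).

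The catalytic core divided between its 2 ligases. Rnf2, the main histone H2A ligase, read 11.48, 11.46, 11.42, 11.42 and 11.32 in Tat-/Meth against 10.89, 11, 10.76, 10.88 and 10.78 in Tat-/Sal. The groups did not overlap, and Rnf2 rose by 0.56 log2 units or 1.47-fold (SE 0.07, limma adjusted p = 5.04e-06). With no scaling the rise was 0.14 and did not pass (limma adjusted p = 0.411). Ring1, its paralogue, read 9.76, 10.12, 10.07, 10.02 and 10.18 in Tat-/Meth against 10.11, 10.38, 10.50, 10.35 and 10.51 in Tat-/Sal. It fell by 0.34 log2 units (SE 0.13, limma adjusted p = 0.0307), with overlap. The Ring1 call was lost with median scaling (adjusted p = 0.344), with no filter on signal, and without any one of 5 arrays, Tat-/Meth replicates 1 and 4 and Tat-/Sal replicates 2, 3 and 5, where the limma adjusted p was 0.0507 to 0.0894.

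Bmi1, the Pcgf subunit that stimulates the ligase, gave 2 different readings. Probe A_52_P39157 read 11.90, 11.84, 11.88, 11.92 and 11.85 in Tat-/Meth, above every other array of the study, and 11.54, 11.67, 11.39, 11.49 and 11.42 in Tat-/Sal. The rise was 0.38 (SE 0.07, limma adjusted p = 0.000226), but with no scaling the sign turned (-0.04, adjusted p = 0.794). Probe A_55_P2170335 read 12.28, 12.35, 12.30 and 12.13 in 4 Tat-/Meth arrays and 8.53 in replicate 1. On the other 15 arrays it read 11.94 to 12.46, so only that 1 array stood apart. Its difference of -0.78 (SE 0.50, limma adjusted p = 0.206) became -0.03 (adjusted p = 0.792) without that replicate. Among 31378 probes measured on every array, 5 lay at least 3 log2 units below the next lowest array on Tat-/Meth replicate 1, and the other arrays had 0 or 1 such probe each.

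The polyhomeotic subunits, which polymerise and cluster the complex, moved little. Phc2 had 14.46 to 14.72 on all 20 arrays and a difference of 0.01 (SE 0.06, limma adjusted p = 0.938). Phc1 had 10.59 to 11.08 on all arrays and a difference of 0.07 (SE 0.08, limma adjusted p = 0.462). With no scaling both turned lower in Tat-/Meth and passed (Phc1 -0.35, Phc2 -0.42), as the median of all probes moved from 0.10 to -0.33 in that setting. Directions here are therefore relative to the 75th percentile of each array.

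**Figure D2:**
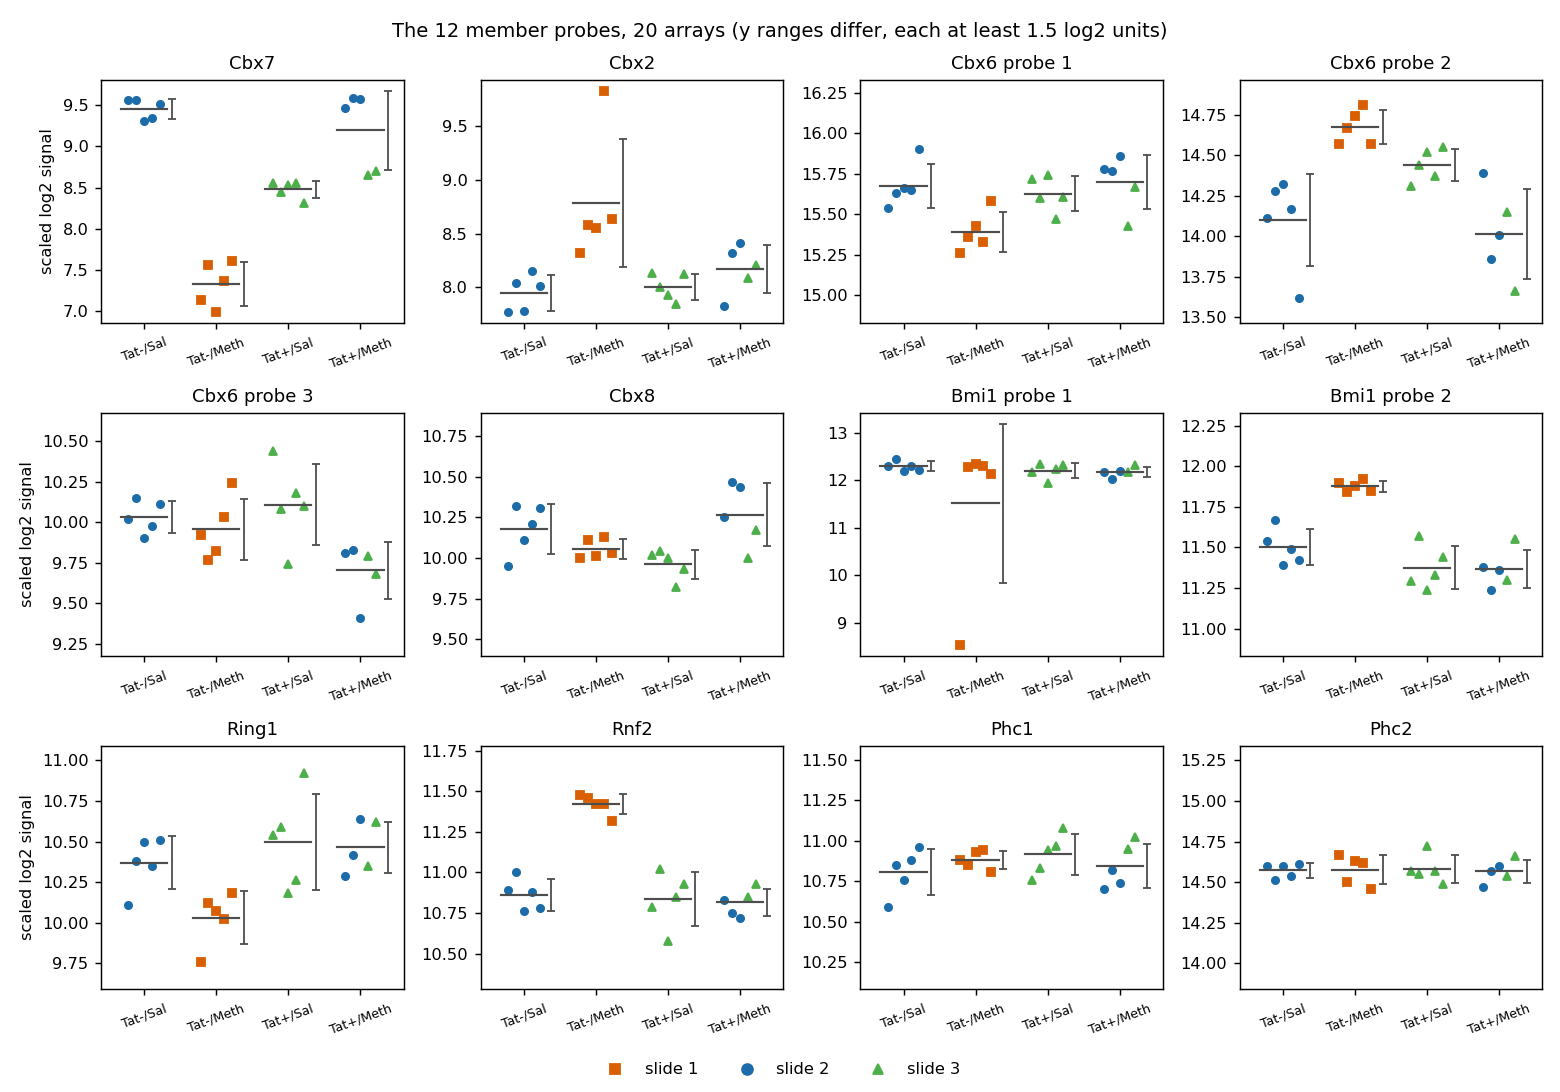
Scaled log2 signal of each of the 12 member probes on the 20 arrays, 1 panel per probe, by group, with the slide shown by shape and colour; lines are means and bars 1 SD (n = 5). Cbx6 probes 1, 2 and 3 are A_51_P391764, A_51_P221428 and A_55_P2111741, and Bmi1 probes 1 and 2 are A_55_P2170335 and A_52_P39157. Rnf2 and Bmi1 probe 2 are highest on every Tat-/Meth array. Cbx7 lies in separate bands by slide, with Tat-/Meth alone on slide 1. Single arrays stand apart for Cbx2 (9.83) and Bmi1 probe 1 (8.53).

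In Tat+/Meth vs. Tat-/Meth, which asks about Tat under Meth, 7 of 12 member probes from 6 genes passed, against 53.5% of all tested probes, 3 higher (23.2% of all) and 4 lower (30.3%). This comparison shares the Tat-/Meth arrays of slide 1 with the previous one. Cbx7 was 1.86 log2 units or 3.64-fold higher in Tat+/Meth (SE 0.17, limma adjusted p = 6.63e-08) and was the only member over 2-fold, where 12% of all probes were. Ring1 was higher by 0.43 (limma adjusted p = 0.00697), with all Tat+/Meth arrays at 10.29 to 10.64 and above all Tat-/Meth arrays.

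Rnf2 read 10.83, 10.75, 10.72, 10.85 and 10.93 in Tat+/Meth and was lower than in Tat-/Meth (difference -0.60, SE 0.07, limma adjusted p = 1.95e-06). Bmi1 probe A_52_P39157 was lower (-0.51, limma adjusted p = 7.95e-06), at 11.38, 11.24, 11.36, 11.30 and 11.55. Neither overlapped with Tat-/Meth. Cbx2 was lower (-0.61, limma adjusted p = 0.0163), at -0.35 (adjusted p = 0.0163) without Tat-/Meth replicate 4, and the groups overlapped. The Cbx2 call was lost when only the groups compared were fitted (adjusted p = 0.0725). Cbx6 probe A_51_P221428 was lower (-0.66, limma adjusted p = 0.000337) and A_51_P391764 higher (0.31, limma adjusted p = 0.00609). Without scaling, Cbx2, Rnf2, Cbx6 A_51_P221428 and Bmi1 A_52_P39157 kept their direction and did not pass. Median scaling took the calls of Ring1 (0.28, adjusted p = 0.215) and of Cbx6 A_51_P391764 (0.15, adjusted p = 0.427). Quantile normalization also took the latter (0.17, adjusted p = 0.089). Cbx8 differed by 0.21 (limma adjusted p = 0.0534) and passed in 9 of 34 other settings, among them without Tat-/Sal replicate 1 and without Tat+/Meth replicates 4 or 5.

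**Figure D3:**
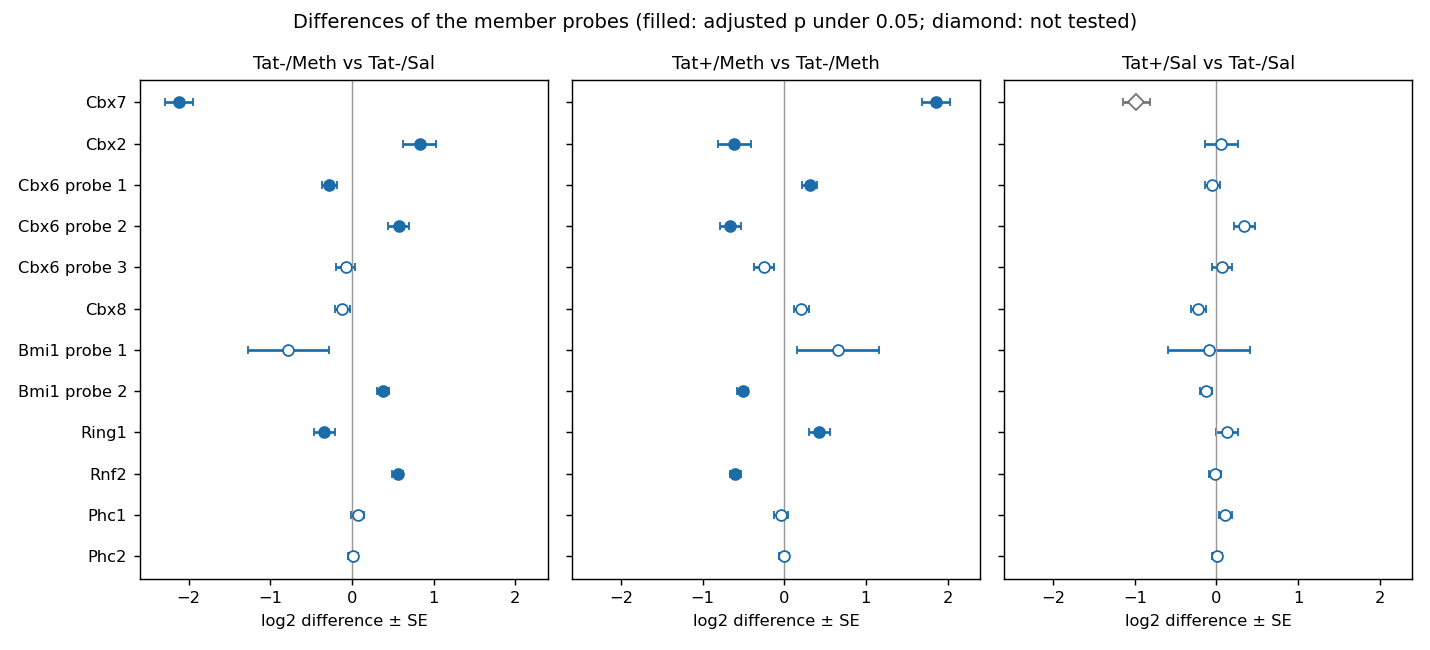
Log2 differences ± SE of the 12 member probes in 3 comparisons, from the limma fit over 20 arrays; filled points have an adjusted p under 0.05, and the diamond marks Cbx7 in the contrast that chose it, which was not tested. Probe numbers follow the order of brightness within a gene. Cbx7 has the largest difference in each panel (-2.12, 1.86 and -0.98), and the other 11 probes lie between -0.22 and 0.34 in Tat+/Sal vs. Tat-/Sal.

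Between the saline groups, Tat+/Sal vs. Tat-/Sal, 0 of the 11 other member probes passed limma, against 0.708% of all tested probes. By the methods' t-test with adjustment the count was also 0. At an unadjusted p under 0.05 there were 2 of 11 by either test, near the 16.6% of all tested probes that limma gave. These were Cbx6 A_51_P221428 (0.34, limma adjusted p = 0.194) and Cbx8 (-0.22, limma adjusted p = 0.216). With slide as a random block Cbx8 passed (-0.27, limma adjusted p = 0.0324), in a setting whose correlation within a slide was -0.06 and in which 2991 probes passed.

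Meth in the Tat+ mice, Tat+/Meth vs. Tat+/Sal, gave 0 of 12 member probes past limma's adjusted threshold and 4 at an unadjusted p under 0.05, where 0% of all tested probes passed and 11.5% (3624) had an unadjusted p under 0.05. The methods' t-test also gave 0 with adjustment and 4 without. Cbx7 was 0.72 log2 units higher in Tat+/Meth (SE 0.17, limma adjusted p = 0.242), and 0.20 within slide 3 as given above. It is among the 4 probes that limma gave, and its Tat+/Sal arrays are those of the contrast that chose it. For Cbx7 this comparison is therefore a description, and the count of 4 is not independent of that choice. Cbx8 was higher by 0.31 (limma adjusted p = 0.261), and Cbx6 probes A_51_P221428 and A_55_P2111741 were lower (-0.42, adjusted p = 0.277, and -0.40, adjusted p = 0.262). Within slide 3 the 2 Cbx6 probes differed by -0.53 and -0.37 and Cbx8 by 0.12. Of all tested probes, 0 passed limma's adjusted threshold there.

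Tat+/Meth vs. Tat-/Sal likewise gave 0 of 12 past limma's adjusted threshold, against 0.00317% of all probes. The methods' t-test gave 0 with adjustment and 1 without, and limma 1 of 12 at an unadjusted p under 0.05, where 6.31% of all tested probes were. That probe was Cbx6 A_55_P2111741 (-0.33, limma adjusted p = 0.778), whose groups did not overlap, at 9.41 to 9.83 against 9.90 to 10.15. Cbx7 differed by -0.26 (limma adjusted p = 0.791), and by 0.08 within slide 2, where its Tat-/Sal arrays are again those of the contrast that chose it.

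The interaction subtracts the Meth difference without Tat from the one with Tat. It was past limma's threshold for 5 of the 11 probes other than Cbx7, from 4 genes, against 37% of all tested probes. The count was 2 with median scaling, and 0 of the 5 exceeded 2-fold. They were Rnf2 (-0.58, limma adjusted p = 0.000258), Cbx6 A_51_P221428 (-0.99, adjusted p = 0.000323), Bmi1 A_52_P39157 (-0.39, adjusted p = 0.00519), Cbx8 (0.43, adjusted p = 0.0112) and Cbx6 A_51_P391764 (0.36, adjusted p = 0.0287). Cbx7 had 2.84 log2 units, which contains the contrast that chose it and was not tested. The Tat-/Meth arrays of slide 1 enter every one of these values.

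The rest of the Polycomb system was read from gene lists. Of the other PRC1 subunits, which include the Pcgf proteins of variant complexes and their partners, 22 of 24 genes had probes. In Tat-/Meth vs. Tat-/Sal, 10 of their 30 tested probes rose and 3 fell, 43.3% in all against 50.3% of all probes, with a median of 0.20 against 0.10. The largest changes were in Bcorl1, a corepressor of a variant PRC1 (-0.98, limma adjusted p = 2.38e-06), Pcgf3 (0.61, adjusted p = 0.0182) and Fbrs (0.56, adjusted p = 5.71e-06). The other Bcorl1 probe differed by 0.02 (adjusted p = 0.826), so the 2 probes of that gene disagreed.

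For PRC2, the complex that lays down the mark read by the chromobox proteins, 6 of 18 tested probes rose and 0 fell. That was 33.3%, against 50.3% of all probes (28.1% higher and 22.2% lower), with a median of 0.12 against 0.10. The largest changes were in its accessory and histone-binding subunits Aebp2 (0.77, limma adjusted p = 0.000235), Rbbp4 (0.60, adjusted p = 0.000178) and Phf1 (0.58, adjusted p = 0.00147). Each of these 3 genes had another probe that did not pass, at 0, 0.18 and -0.05 log2 units. Of the core, Eed, which binds the methylated tail, rose by 0.29 (adjusted p = 0.000429). The methyltransferase Ezh2 (0.13, adjusted p = 0.304) and Suz12 (0.11, adjusted p = 0.316) did not pass. Neither did any of the 3 Ezh1 probes.

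Of the probes for genes tied to removal of the H2A mark, 6 of 9 rose and 0 fell (66.7% passed against 50.3% of all probes, median 0.28 against 0.10). Asxl3 (0.61, limma adjusted p = 0.006), Asxl2 (0.49, adjusted p = 0.0359) and Usp16 (0.35, adjusted p = 9.6e-05) changed furthest. The deubiquitinase Bap1 (0.08, adjusted p = 0.306), Asxl1 (0.08, adjusted p = 0.261) and Foxk2 (-0.17, adjusted p = 0.0523) did not pass. Of 7 probes for the chromobox proteins of heterochromatin and their relatives, 4 rose and 1 fell (71.4% against 50.3% of all probes), led by Cbx5 (0.62, adjusted p = 0.000176) and, lower, Cdyl2 (-0.38, adjusted p = 0.000368).

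Of 14 textbook Polycomb targets, 8 had a probe that passed the signal filter, and 3 of the 10 probes tested rose and 2 fell in Tat-/Meth vs. Tat-/Sal (50% against 50.3% of all probes). Over these 5 lists 35 probes passed, or 19 with median scaling. For Wnt1, a developmental signal, probe A_55_P2106911 fell by 2 log2 units (limma adjusted p = 2.13e-08). Its other probe, A_55_P2001033, read 2.27 to 4.04, was not well above background on any array and was not tested. For Hoxa9, probe A_55_P2066103 rose well above background on 4 of 5 Tat-/Sal arrays but not on any Tat-/Meth array. It read 3.98-fold lower there (limma adjusted p = 0.000107), a value that rests on readings not well above background. The other Hoxa9 probe differed by -0.01 (adjusted p = 0.979). Pax6 (0.60, adjusted p = 0.0016) and Cdkn2b (0.38, adjusted p = 0.0311) rose, and Cdkn2a, the best known target of Cbx7 and Bmi1, did not reach the filter.

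**Figure D4:**
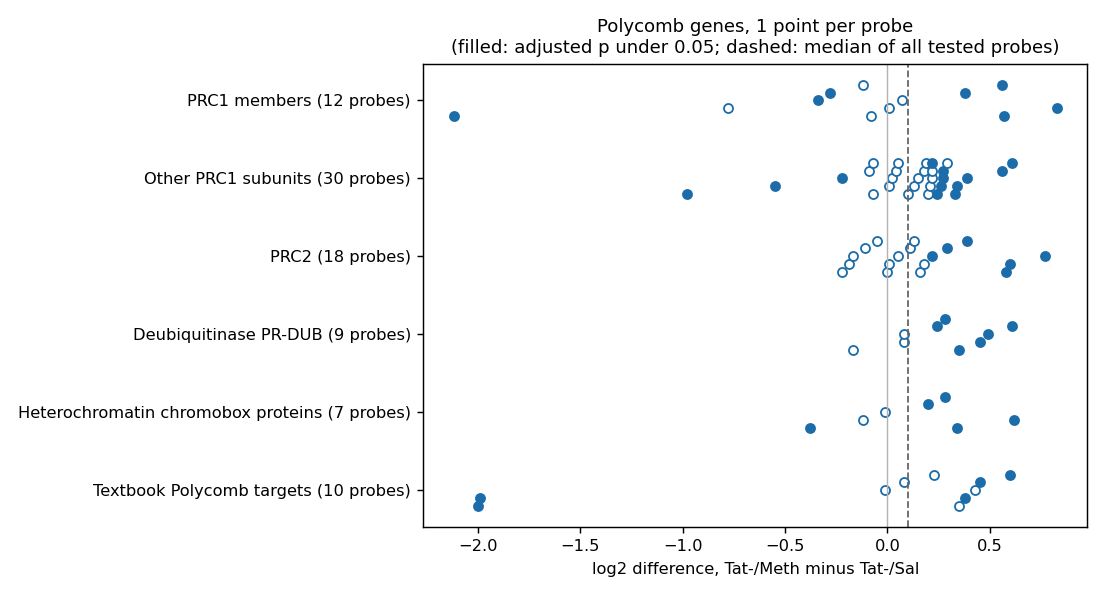
Log2 difference of every tested probe of the member genes and of 5 Polycomb lists in Tat-/Meth vs. Tat-/Sal, 1 point per probe, filled where the limma adjusted p was under 0.05; the dashed line is the median of all tested probes (0.10). Most probes lie within 1 log2 unit of 0, and Cbx7 (-2.12), the tested Wnt1 probe and 1 Hoxa9 probe lie furthest below it.

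In Tat+/Meth vs. Tat-/Meth the same lists gave 2 higher and 8 lower of 30 other PRC1 probes, and 1 and 8 of 18 for PRC2. They gave 0 and 5 of 9 for the H2A mark removal genes, 1 and 3 of 7 for the heterochromatin genes and 2 and 2 of 10 for the targets. These are 33.3%, 50%, 55.6%, 57.1% and 40% of the probes of each list, against 53.5% of all tested probes, of which 23.2% were higher and 30.3% lower. Among those higher in Tat+/Meth were Wnt1 (2.28 for its tested probe), Bcorl1 (1.02 for the probe that had fallen above) and Pcgf2, a paralogue of Bmi1 (0.75, limma adjusted p = 3.01e-06). Aebp2 (-0.79), Asxl3 (-0.72), Phf1 (-0.64) and Cbx5 (-0.56) were lower. The other probes of Pcgf2 (0.06, adjusted p = 0.917) and Phf1 (0.08, adjusted p = 0.591) did not pass. None of these probes passed limma's adjusted threshold in Tat+/Meth vs. Tat+/Sal, Tat+/Sal vs. Tat-/Sal or Tat+/Meth vs. Tat-/Sal.

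Markers of astrocytes, the cells in which the transgene is driven, moved with the Tat-/Meth arrays: 6 of 8 probes were higher than in Tat-/Sal and 0 lower, against 28.1% and 22.2% of all tested probes, with a median of 0.37 log2 units against 0.10. In Tat+/Meth vs. Tat-/Meth 7 of the 8 were lower and 0 higher, against 30.3% and 23.2% of all tested probes. The mean over its 5 genes was 12.34 to 12.70 on the Tat-/Meth arrays, 12.02 to 12.16 in Tat-/Sal, 11.92 to 12.14 in Tat+/Sal and 11.90 to 12.14 in Tat+/Meth, and all 5 were well above background on every array. Of 8 microglia probes, 2 fell and 0 rose in Tat-/Meth vs. Tat-/Sal, or 25% against 50.3% of all tested probes. In Tat+/Meth vs. Tat-/Meth 4 fell and 2 rose, or 75% against 53.5%. The array means over the 4 microglia genes overlapped, at 12.61 to 12.67 in Tat-/Meth and 12.61 to 12.81 in Tat-/Sal. Of 6 oligodendrocyte probes, 1 was higher and 0 lower in Tat-/Meth vs. Tat-/Sal, or 16.7% against 50.3% of all tested probes. In Tat+/Meth vs. Tat-/Meth 4 were lower and 0 higher, or 66.7% against 53.5%. The part of these cell types in the Tat-/Meth differences of the members was not tested.

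By the root mean square difference of profiles centred on their mean over the 20 arrays, the genes most like Cbx7 were Mapkap1, Lingo1 and Cox17 (0.25 log2 units each), 1700071K01Rik (0.27) and Slc4a4 (0.29), against an SD of 0.86 for Cbx7 itself. As they were picked for this likeness, their order by slide follows from the choice and is a description: each mean was highest on slide 2 and lowest on slide 1. Lingo1, for example, had 10.27 to 10.52 on slide 2, 9.26 to 9.71 on slide 3 and 8 to 9.19 on slide 1. The slides did not overlap for 4 of the 5, the exception being Mapkap1, whose slides 1 and 3 did. Lingo1 and 1700071K01Rik are, like Cbx7, on the paper's list of genes changed in Tat+/Sal vs. Tat-/Sal. Their likeness thus shares the contrast that chose Cbx7. All these probes were measured on the same arrays.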

How the data were processed

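The authors deposited 1 scanner file per array with spot intensity values from Agilent Feature Extraction 10.7.3.1 (array design 028005, 1 colour) and a series matrix of intensity values. Spots marked as outliers were left out (4278), repeat spots averaged as log2 values, and the 75th percentile of every array set equal (largest difference 0.7 log2 units). RefSeq identifiers named 27656 of 55681 probes. The 31516 probes with a mean of at least 6 in 1 group and values on at least 3 arrays per group were tested. Limma 3.58.1 in R 4.3.3 fitted 4 group means over 20 arrays, each probe on its own, with Benjamini-Hochberg adjustment over all tested probes; "passed" means an adjusted p under 0.05. All members were named and, per list, up to 3 genes with the largest passing change. Cdkn2a, Cdkn2b, the core PRC2 genes and second probes were added after their values were seen. Members and lists were chosen with earlier results of these data known. On simulated data with 31516 probes, 200 were changed in Tat-/Meth vs. Tat-/Sal. Of these, 53% of changes of 0.5 and 83% of changes of 1 log2 unit were recovered. In the real arrays 15840 probes passed in that comparison, so these shares do not give the recovery there or in the other comparisons. The number of arrays limits the precision. The p-values set each difference against the spread between arrays of the same group. For Tat-/Meth that spread lies within slide 1, so the step from slide 1 to the other slides does not enter it. Same-numbered replicates did not deviate together (30 pairs, correlations -0.14 to 0.31) and were not taken as pairs. Alternatives covered scaling, background correction, filters, probe choice, slide blocks and single arrays left out.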

Additional observations from a re-analysis of the deposited data

Results flagged for a closer look

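In 48 sets of 5 arrays (12 probes in 4 groups), 2 held 1 array far from the others; chance alone gives about 1 in 20 sets. Cbx2 read 9.83 in Tat-/Meth replicate 4 and 8.32 to 8.64 in the other 4 arrays of that group. Bmi1 probe A_55_P2170335 read 8.53 in Tat-/Meth replicate 1 and 12.13 to 12.35 in the others.

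The Meth difference was tested to differ between Tat+ and Tat- mice for 5 probes (limma interaction): Cbx6 A_51_P391764 (0.36, SE 0.12, adjusted p = 0.0287), Cbx6 A_51_P221428 (-0.99, SE 0.18, adjusted p = 0.000323), Cbx8 (0.43, SE 0.12, adjusted p = 0.0112), Bmi1 A_52_P39157 (-0.39, SE 0.10, adjusted p = 0.00519) and Rnf2 (-0.58, SE 0.10, adjusted p = 0.000258). The count of 5 was 2 with median scaling. The Tat-/Meth arrays alone occupy slide 1, so a difference of slide and a difference of group cannot be told apart in these values.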

How the results depend on the processing

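The Cbx7 difference between Tat+/Sal and Tat-/Sal (-0.98 log2 units) was -1.13 with no scaling, -0.83 after normexp and -0.11 with slide as a fixed block, and -1.02 to -0.94 when single arrays were left out. The count of member probes not overlapping by slide within Tat+/Meth (5) was 3 with median scaling.

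Member probes passed: leaving out single arrays gave 6 to 7 in Tat-/Meth vs. Tat-/Sal (7 in full), 7 to 8 in Tat+/Meth vs. Tat-/Meth (7), 4 to 6 for the interaction (5) and 0 in the other 3 comparisons. The mean over a gene's probes gave 4 for Meth without Tat and 3 for the interaction, the brightest probe alone 3 for the interaction and median scaling 2; the settings by gene hold fewer probes. Above 2-fold, and at 3-fold with an adjusted p under 0.01, 1 remained in each comparison with Tat-/Meth and 0 for the interaction. The slide as a random block gave 1 in Tat+/Sal vs. Tat-/Sal. The methods' t-test without adjustment gave 4 in Tat+/Meth vs. Tat+/Sal, 2 between the saline groups and 1 in Tat+/Meth vs. Tat-/Sal.

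The other Polycomb probes that passed in Tat-/Meth vs. Tat-/Sal (35) were 19 with median scaling, 2 above 2-fold or 3-fold, and 28 to 37 leaving out single arrays. In Tat+/Meth vs. Tat-/Meth (32) they were 21 with no scaling, 3 above 2-fold, 2 above 3-fold and 29 to 36 leaving out single arrays.

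Signs that turned in Tat-/Meth vs. Tat-/Sal were Cbx6 A_55_P2111741 with median scaling (0.04), Bmi1 A_52_P39157 (-0.04), Phc1 (-0.35) and Phc2 (-0.42) with no scaling, Cbx6 as the mean of its probes (0.07), and Phc2 without Tat-/Meth replicate 1 (-0.02), Tat-/Meth replicate 3 (-0.01) or Tat-/Sal replicate 2 (-0.01), with a range of -0.02 to 0.03 over single arrays left out. In Tat+/Meth vs. Tat-/Meth they were Cbx6 A_55_P2111741 (0.09) and Phc1 (0.30) with no scaling, Cbx6 as the mean of its probes (-0.20) and Bmi1 A_55_P2170335 without Tat-/Meth replicate 1 (-0.09, in a range of -0.09 to 0.87). Cbx7 in Tat+/Meth vs. Tat-/Sal turned to 0.08 with slide as a fixed block and within slide 2. The cause of these was not tested.

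With the replicate block the counts were 7, 9 and 5 in the comparisons with Tat-/Meth and 0 in the others; Cbx6 A_55_P2111741 (adjusted p = 0.0355) and Cbx8 (0.0467) then passed in Tat+/Meth vs. Tat-/Meth. Without scaling the share of calls that were lower in Tat-/Meth vs. Tat-/Sal was 97.8%, and after normexp 19.3%, against 44.2%. The same share in Tat+/Meth vs. Tat-/Meth was 5.11% and 78.1%, against 56.6%.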

Other observations

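Outside the complex, Pde10a also had 1 probe whose values lay in separate bands by slide, where slide 1 is Tat-/Meth alone. Pde10a, a phosphodiesterase of striatal projection neurons, was chosen after its values were seen. Its probe A_55_P2000379 read 9.37 to 9.63 on slide 2, 8.17 to 8.51 on slide 3 and 4.49 to 5.23 on slide 1, where it was well above background on 0 of 5 arrays. In Tat-/Meth it read 25.4-fold lower than in Tat-/Sal (limma adjusted p = 3.75e-12), a value that rests on readings not well above background. Its other probes read 16.17 to 16.83 and 14.48 to 15.11 over all slides and differed by 0.22 and 0.12 log2 units in Tat-/Meth vs. Tat-/Sal (adjusted p of 0.0902 and 0.433).

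Cbx6, Apobec3, Cbx7 and Pdgfb follow each other in this order among the protein-coding genes of RefSeq on chromosome 15, looked up after the values of Cbx7 were seen. Apobec3, an antiviral deaminase, read 14.35 to 14.93 on slide 2, 14.48 to 15.56 on slide 3 and 10.65 to 10.91 on slide 1 with its brighter probe, a difference of -3.81 in Tat-/Meth vs. Tat-/Sal (limma adjusted p = 3.39e-12). Within Tat+/Meth that probe was 0.18 higher on slide 3, where the difference of Cbx7 was -0.87. Pdgfb, a growth factor gene, had a probe (A_55_P2047310) that was 0.73 higher on slide 3 within Tat+/Meth without overlap and 0.58 higher in Tat+/Sal than in Tat-/Sal, the opposite direction to Cbx7. Its other probe, A_55_P1974441, differed by -0.46 with overlap and by 0.82.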
